A study of Saccharomyces cerevisiae with 22 samples.

Results

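The *sen1-1* profile rests on 2 of the 22 arrays of a *Saccharomyces cerevisiae* expression series, chosen by their labels alone. RNA from the temperature-sensitive mutant *sen1-1* was hybridised against a common wild type reference RNA, with the mutant in Cy3 on array a and in Cy5 on array b. The series compares mutants of factors that bind the C-terminal domain of RNA polymerase II or act in termination of transcription, and the arrays make 12 profiles. The cells grew in SC medium to early mid-log phase. The methods name independent cultures for a mutant, but the labels do not tie an array to a culture. By the study, all strains, those with temperature-sensitive alleles included, were grown at the same permissive temperature. According to the strain list of the study, *sen1-1* is linked to kanMX6 in a BY4741 background, while the labels give BY4742 for mutant and reference. Profiles set beside it are *pcf11-2* and *pcf11-ts2*, temperature-sensitive alleles of a cleavage factor gene each with 1 array, from a single culture by the methods, and the same strain list background, and the deletions *ctk1*Δ (loss of the CTD serine 2 kinase), *rrp6*Δ and *lrp1*Δ (nuclear exosome), with 2 arrays each and listed in BY4742, all in SC medium. RNA of both channels of the *sen1-1* and *pcf11* arrays was isolated by the same automated protocol per the labels. For *ctk1*Δ this protocol is given for the mutant and another for the reference, and for *rrp6*Δ and *lrp1*Δ the other is given throughout.

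Sen1 is an essential RNA and DNA helicase. With the RNA-binding proteins Nrd1 and Nab3 it forms the Nrd1-Nab3-Sen1 (NNS) complex, which ends transcription of snoRNAs, cryptic transcripts and some short attenuated transcripts at the start of coding genes, and hands the RNA to the nuclear exosome. Ends of most mRNAs are instead made by the cleavage and polyadenylation factors, to which Pcf11 belongs. According to the study, Pcf11 appears to take part in both pathways, and it was found at snoRNA genes as well. snoRNAs guide chemical modification and processing of ribosomal RNA, and many yeast snoRNA genes stand alone with a coding gene close behind them.

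Values are log2 ratios of *sen1-1* over reference, where 0 is no difference, 1 is a doubling and each value is relative to the other genes on the same array. A feature is a named gene or a probe without a gene name, and a feature was called when the adjusted p of limma's moderated test was under 0.05 and the fold change over 1.7, which is also the fold minimum of the study. A probe reads any RNA that covers it, so mRNA of a gene and a longer transcript that runs into it cannot be told apart, and neither can a change in all cells and a larger change in some cells of a culture. Of 6373 features, 95.3% exceeded local background in both channels of both *sen1-1* arrays, and no called feature was saturated or lay below background in a whole group. Across features the arrays correlated with Pearson's r = 0.927, and the median difference between them was 0.11 on the log2 scale.

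Strain markers went against the label. All 7 a-specific genes rose, with *STE2*, the receptor for alpha factor, at 4.37 and 4.85 on arrays a and b, and all 4 alpha-specific genes fell, with *MF(ALPHA)1*, the alpha factor gene, at −6.05 and −5.28. *MET17*, of methionine synthesis, was at −5.04 and −4.75, and *LYS2*, of lysine synthesis, at 2.91 and 2.73. *HMRA1* (4.25), whose sequence is shared with the a version of the mating type locus, and *MATALPHA1* (−2.76) went the same way. The pattern is that of a MATa *met17* LYS2 strain against a MATalpha reference that lacks *LYS2*, and the *pcf11* arrays showed it too, with *STE2* at 4.38 and 4.47 and *MET17* at −4.77 and −4.67. These genes are still in the counts over all features below. The a-specific, alpha-specific and auxotrophy genes were set aside from the named genes and gene lists. *HMRA1* and *MATALPHA1* were not, and each holds a place among the largest named rises or falls. *SEN1* itself was at 0.36 and 0.19 (mean 0.28 ± 0.07, SE), which checks nothing about the label, since *sen1-1* is a mutant allele and not a deletion.

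Against the reference, 332 features (5.21%) were higher and 82 (1.29%) lower in *sen1-1*. The calls had the same sign on both arrays for 414 of 414 features. Without the strain markers and mating type locus genes, 323 were higher and 76 lower. More than 4-fold changes numbered 64 higher and 9 lower, or 56 higher and 3 lower without those genes. Of the called features, 137 have no gene name and are not described further.

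**Figure D1:**
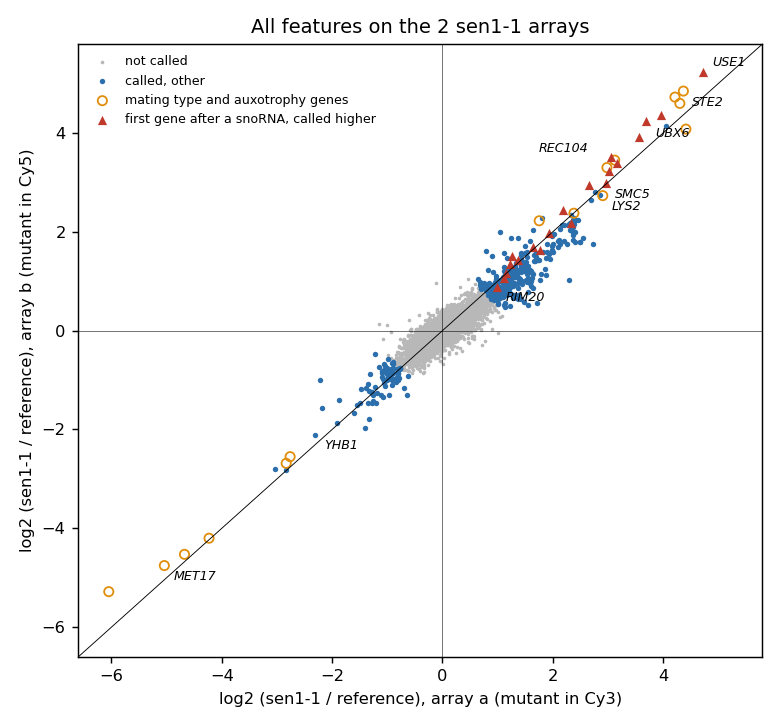
Each point is 1 of 6373 features, with its log2 ratio of sen1-1 over reference on array a on the x axis and on array b on the y axis, and the diagonal marks equal values. Red triangles are the 20 genes called higher that are the first coding gene after a snoRNA gene, from *RIM20* (0.98 and 0.89) to *USE1* (4.72 and 5.24), open orange circles are mating type and auxotrophy genes, and blue points are other called features.

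With the strain markers and *HMRA1* aside, the largest rises among named genes were at genes that lie directly behind snoRNA genes. *USE1*, which encodes a SNARE of retrograde transport to the endoplasmic reticulum and follows *SNR82*, had 4.72 on array a and 5.24 on array b, a 31.5-fold rise. *YDR042C*, an uncharacterised gene after *SNR47*, had 3.96 and 4.35. *UBX6*, after *SNR60* and coding for a partner of the Cdc48 ATPase, had 3.69 and 4.24. The arrays were thus within 0.6 of each other at each of these genes while the rises were above 3.6.

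Position was defined by the gene table of assembly R64. For each of 76 snoRNA genes the nearest coding gene was taken that lies downstream of the 3′ end, on the same strand and with its start within 2 kb, which gave 47 genes, of which 43 are measured by name. Of these 43, 20 rose (46.5%, against 5.21% of all features) and 1 fell (1.29% of all features). The median log2 ratio of the 43 was 0.20, against 0.01 over all features, and the 22 genes not called lay between −0.60 (*ICY1*) and 0.49 (*PAU2*). No first gene lay between 0.49 and 0.94, so called and uncalled values did not touch.

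The 20 genes encode proteins of many different roles. *TRS31*, a subunit of the TRAPP vesicle tethering complex behind *SNR13*, was at 3.57 and 3.91. *REC104*, a meiotic recombination gene behind *SNR71*, was at 3.06 and 3.51. *HEM4*, of heme synthesis and behind *SNR5*, was at 3.17 and 3.39. Each of these stood more than 3 log2 units above the reference on both arrays.

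*SEN2*, behind *SNR79*, was at 3.02 and 3.24 and encodes a subunit of the tRNA splicing endonuclease, which is no part of the NNS complex in spite of its name. *SMC5*, of the Smc5/6 complex that acts in DNA repair, followed *SNR50* and was at 2.96 and 2.98. *FLX1*, a mitochondrial carrier gene behind *SNR68*, was at 2.65 and 2.94. *RGT1*, a repressor of glucose transporter genes behind *SNR69*, and *SFT1*, a Golgi SNARE gene behind *SNR87*, had means of 2.32 and 2.26. Both arrays placed these genes between 4-fold and 10-fold above the reference.

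Smaller rises were seen at *MAD1*, a spindle checkpoint gene behind *SNR10* (1.92 and 1.98), and *STP22*, of the ESCRT-I sorting complex and behind *SNR43* (1.78 and 1.63). *BUD22*, a ribosome biogenesis gene behind the cluster of 7 snoRNA genes from *SNR72* to *SNR78*, was at 1.65 and 1.69. *UBA1*, the ubiquitin activating enzyme gene, was at 1.37 and 1.44. The rises at *YTM1*, of ribosome assembly (1.39), *NUP188*, a nucleoporin gene (1.28), *GAL11*, of the Mediator (1.17), *PDX3*, of vitamin B6 metabolism (1.09), and *RIM20*, of the alkaline pH response (0.94), completed the 20. The adjusted p of limma's test ranged from 2.03e-14 for *USE1* to 8.00e-08 for *PDX3*, and the lowest value on either array was 0.89 for *RIM20*.

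The gene that fell was *DFR1*, dihydrofolate reductase, behind *SNR17A*, with −1.35 and −1.46. The probe of *SNR10*, the only snoRNA gene measured by name and picked out here after its value was seen, was at 1.64 and 1.65. In *rrp6*Δ the *SNR10* probe was at 4.13 and 5.26.

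**Figure D2:**
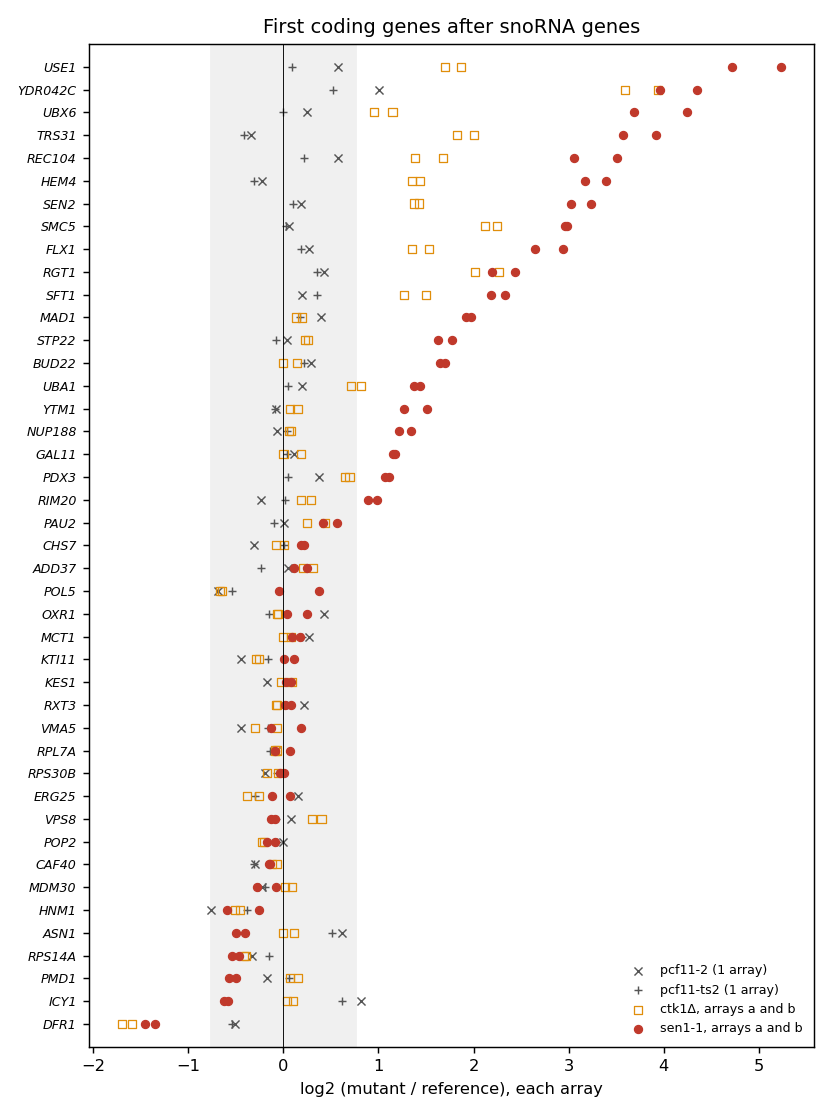
Each row is 1 of the 43 first coding genes after a snoRNA gene, ordered by the sen1-1 mean, and the x axis is the log2 ratio of mutant over reference on single arrays. Filled red circles are the 2 sen1-1 arrays, open squares the 2 ctk1Δ arrays, crosses pcf11-2 and plus signs pcf11-ts2, and the grey band marks changes under 1.7-fold. The upper 20 genes have both sen1-1 arrays right of the band, while the pcf11 arrays stay in the band at all of these but *YDR042C*, where pcf11-2 is at 1.0.

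Distance and arrangement went with the call. Genes behind snoRNAs that are transcribed on their own number 37, and 20 of them rose (54.1%, against 5.21% of all features, median 1.09). Of the 6 genes behind snoRNAs that sit in an intron of a coding gene (*VPS8*, *HNM1*, *VMA5*, *MDM30*, *POP2* and *OXR1*), 0 were called by limma, and their values ran from −0.42 to 0.14. With 5.21% of all features higher and 1.29% lower, 0 calls among 6 genes do not set them apart from all features. Among the 37, 19 of 27 that start within 1 kb of the snoRNA rose (70.4%, median 1.41), against 1 of 10 that start between 1 and 2 kb away (median 0.09). The exception in the farther group was *REC104*, and 1 call among 10 genes is not far from the share of all features.

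Where no coding gene of the opposite strand lay in between, 16 of 25 rose (median 1.39), against 5.21% of all features. Where such a gene lay between the snoRNA and the first gene, 4 of 12 rose (*MAD1*, *STP22*, *REC104* and *RIM20*, median of the 12 at 0.15). These counts share genes, since a gene in between also makes the distance longer, and the split between both was not tested.

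Second genes behind snoRNAs were called at a share near that of all features. Of 37 measured second genes on the same strand, 3 rose (8.11%, against 5.21% of all features, median 0.07) and 0 fell. Second genes that are themselves a first gene behind a snoRNA had been left out of this set. The set has no limit on the distance of the second gene itself and includes loci whose first gene was not called. It therefore cannot show whether a rise at a first gene ends there. *POL4*, a DNA polymerase gene of end joining, was at 2.76 and 2.80, and its snoRNA is *SNR33*, whose first gene *CTO1* was not measured by name. *GSC2* and *YMR196W*, the other 2, were at 1.4 and 1.05 and were also called higher in *ctk1*Δ (2.68 and 1.80).

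Falls were found among genes facing a snoRNA. Of 28 measured genes that are the nearest downstream of a stand-alone snoRNA on the opposite strand, 0 rose and 5 fell (17.9%, against 1.29% of all features), with a median of −0.26. Genes that are also a first gene behind a snoRNA had been left out of the 28, which bears on the 0 that rose. All 5 lie next to the snoRNA, before any gene on its own strand, where 5 of 21 were called (median −0.46), against 0 of 7 beyond the first gene (median −0.07). *PAM16*, of the mitochondrial import motor, faces *SNR37* and was at −1.60 and −1.66. *MMS2*, of postreplication repair, faces *SNR10* and was at −1.32 and −1.79, while *MAD1* behind it rose to 1.95.

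*ODC2*, a mitochondrial carrier gene that faces *SNR35*, was at −1.19 and −1.25. *ADE16*, of purine synthesis and facing *SNR30*, was at −0.97 and −1.30, and *GLO4*, a mitochondrial glyoxalase gene facing *SNR9*, was at −0.89 and −0.85. All 5 genes were below −0.8 on both arrays. *LIN1*, which lies between *SNR71* and *REC104*, had −0.48 and −0.54 and was not called because its fold change is under the minimum. Whether the labelled material of these arrays keeps the strand of the RNA is not given in the sources used here.

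**Figure D3:**
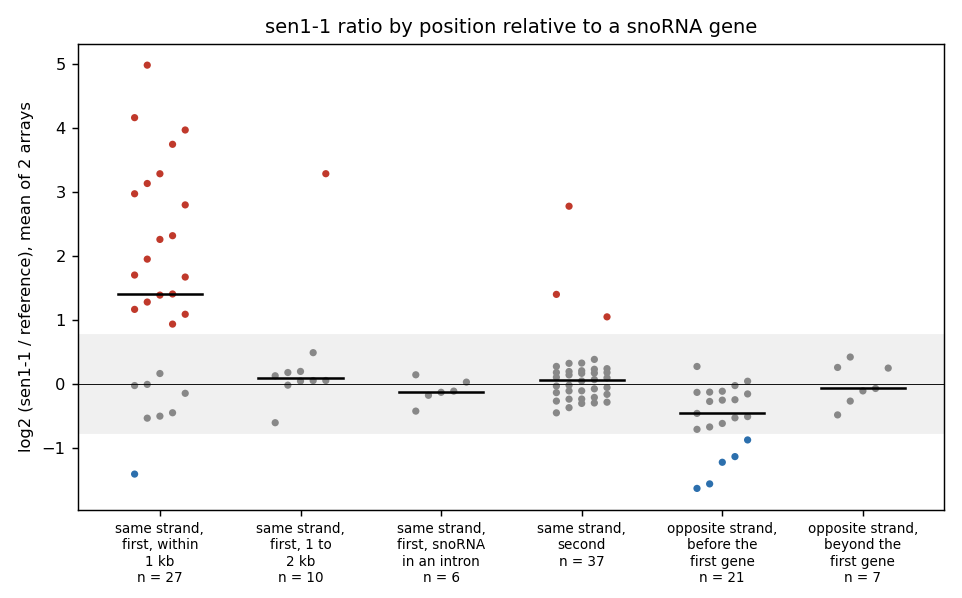
The y axis is the mean log2 ratio of sen1-1 over reference over 2 arrays, and each column holds the coding genes in 1 position relative to a snoRNA gene, with the number of genes under it. Red points were called higher, blue lower and grey not called, bars are medians and the grey band marks changes under 1.7-fold. The first genes within 1 kb reach from −1.41 to 4.98 with a median of 1.41, and the other columns have medians between −0.46 and 0.09.

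Pairs of adjacent coding genes were also counted over the whole genome. Of the 82 genes called higher whose upstream neighbour on the same strand was measured, 4 (4.88%) had a neighbour that was called higher as well, against 3.25% of all 2214 genes with such a neighbour. Among 23 genes called lower that face a measured gene at their 3′ end, 0 faced a gene called higher, against 4.0% of all 2448 genes with such a partner.

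Genes under early termination by the NNS complex were counted next. The list holds 12 genes that are attenuated or controlled by NNS termination near their starts, and 6 rose, against 5.21% of all features, and 0 fell, with a median of 0.97 against 0.01 over all features. *URA8*, CTP synthase, was at 2.41 and 2.24. *HRP1*, which encodes a subunit of cleavage factor I, was at 1.90 and 1.76. *NRD1*, whose product limits its own mRNA, was at 1.5 and 1.58. The adjusted p of limma's test was 4.51e-12 for *URA8*, 8.26e-12 for *HRP1* and 1.86e-08 for *NRD1*. *NRD1* was also called higher in other mutants, with 1.48 in *ctk1*Δ, 1.56 in *rrp6*Δ and 1.41 in *lrp1*Δ.

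*IMD2* was at 1.7 and 1.49 and *IMD3* at 1.53 and 1.59. Both encode IMP dehydrogenase, the step that commits to guanine nucleotides, and their sequences are close, so their probes may share signal. *GSC2*, a glucan synthase gene, completed the 6. *DEF1* (0.54), *ADE12* (0.51), *URA2* (0.33) and *PCF11* (0.23) lay above 0 on both arrays without a call, and *CLN3* (−0.02) and *RPL9B* (−0.17) lay near 0.

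Of the 3 NNS subunits *NRD1* alone rose, and *NAB3* was at 0.10. Of 18 exosome and TRAMP genes, which act on the released RNA, 0 were called, and their values ran from −0.28 to 0.62 (*MPP6*). Of 23 cleavage, polyadenylation and torpedo factor genes, 3 rose, namely *HRP1*, *REF2* (1.24) and *RNA14* (0.82). *REF2* and *RNA14* were at 1.04 and 0.997 in *ctk1*Δ as well, and *RNA14* was called in both *pcf11* alleles. Among 12 proteins of snoRNA particles and 8 RNase H and Sen1 partner genes 0 were called by limma, with medians of −0.03 and 0.07. The counts in these lists stand against 5.21% of all features higher and 1.29% lower. For lists of 8 to 18 genes, 0 calls are near those shares.

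Nucleotide synthesis lists overlap with the attenuated genes, in *URA8*, *URA2*, *ADE12*, *IMD2* and *IMD3*. Their counts are to be read against 5.21% of all features higher and 1.29% lower. Of 8 pyrimidine genes 2 rose (*URA8* and *URA10*, 0.96) and 2 fell (*URA4*, −0.89, and *URA1*, −0.88, which was at −0.76 and under the fold minimum without array a). Of 10 purine genes, *ADE16* fell and none rose, which for 10 genes is near the share of all features. Of 5 guanine genes, *IMD2* and *IMD3* rose, while *IMD4* was at 0.61 and *GUA1* at −0.26.

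Genes of the response to mating pheromone were a further list. Of 19, 5 rose, against 5.21% of all features, and 0 fell, with a median of 0.53. *PRM3*, of nuclear fusion, was at 1.98 and 1.92, and *PRM2* was at 1.43 and 1.52. *FIG1* (1.04 and 1.99), *PRM6* (0.90 and 1.51) and *AGA1* (0.80 and 1.6) were higher on array b than on array a. The mating type of the strains differs between *sen1-1* and the reference, and against the *pcf11* alleles 3 of the 19 were higher (3.44% of all features), with *PRM3* at 1.63, *PRM2* at 1.17 and *FIG1* at 0.96. *FIG1* differed by 0.46 without array b and by 0.62 from *pcf11-ts2* alone, both under the fold minimum. In *pcf11-ts2*, *FIG1*, *PRM6* and *AGA1* were at 0.90, 1.04 and 1.44 against the reference. In *ctk1*Δ 4 of the 19 were called higher (7.28% of all features there), *PRM3* (1.75) and *AGA1* (0.89) among them. Against *ctk1*Δ, 3 of the 19 were higher in *sen1-1* (3.53% of all features), while *PRM3* differed by 0.20 and was not called.

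Of 38 targets of the stress factors Msn2 and Msn4, 11 rose (5.21% of all features did), 0 fell and 27 were not called (median 0.54). *HSP12*, which encodes a membrane protective heat shock protein, was at 2.73 and 1.76, *MSC1* at 2.30 and 1.02 and *HSP26* at 1.6 and 1.01. Array a stood above array b at each of these genes, and without array a the adjusted p from limma was 0.0971 for *MSC1* and 0.154 for *HSP26*. In *ctk1*Δ 34 of the 38 rose, against 7.28% of all features there, and the median was 1.55.

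Shorter lists gave few calls, to be read against 5.21% of all features higher and 1.29% lower. Of 23 sulfur amino acid genes *MET3* (1.29), *MET32* (1.16) and *MET14* (0.96) rose. *MET17*, set aside above, acts in the same pathway and differs between the strains, and its part in these rises was not tested. Of 11 cell wall integrity genes *GSC2*, *PRM5* (1.30) and the kinase gene *SLT2* (0.88) rose. *GSC2* was also called higher in *pcf11-2*, *pcf11-ts2* and *ctk1*Δ (2.28, 1.17 and 2.68), and so was *PRM5* (1.41, 1.39 and 1.73). *SLT2* was called in none of these. Of 12 unfolded protein response genes *INO1*, of inositol synthesis (0.97), *ERO1*, of disulfide formation (0.80), and *FPR2* (0.77) rose. *ERO1* and *FPR2* fell under the fold minimum without array a, at 0.67 each.

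Among 11 DNA damage genes 1 was called higher, a share near that of all features (5.21%), namely *MAG1*, a DNA glycosylase gene, at 1.09 and 0.80. Of 14 phosphate starvation genes, 1 rose, also near that share, namely *PHM8* (0.92, with 0.67 and an adjusted p of 0.0519 from limma without array a) and *PHO84*, the high-affinity phosphate transporter, fell (−1.55 and −1.51). *PHO84* was also called lower in *ctk1*Δ (−2.47), *rrp6*Δ (−3.02) and *lrp1*Δ (−2.96). Of 44 cytosolic ribosomal protein genes 0 were called (median −0.13), and of 54 ribosome biogenesis genes 2 were, *BUD22* and *YTM1*, both first genes behind a snoRNA (median −0.09).

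**Figure D4:**
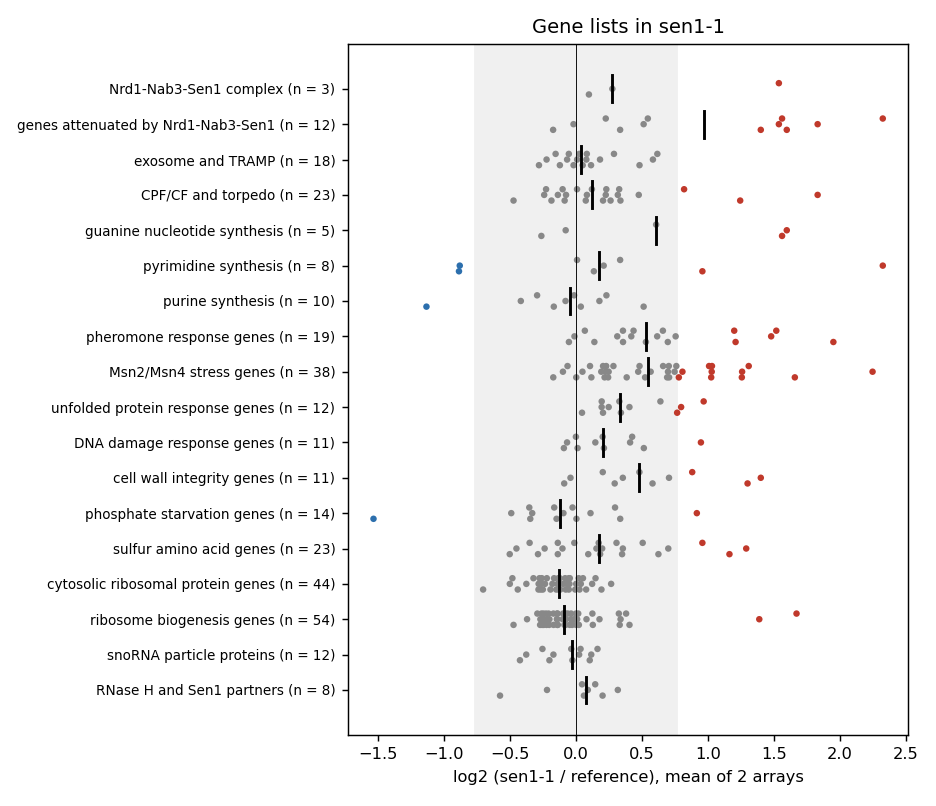
Each point is 1 gene of a list, with its mean log2 ratio of sen1-1 over reference on the x axis, and the number of measured genes stands beside the name of the list. Red points were called higher, blue lower and grey not called, bars are medians and the grey band marks changes under 1.7-fold. The genes attenuated by the NNS complex have a median of 0.97, and the ribosomal protein genes lie between −0.70 and 0.27.

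Beyond these groups, the rule for named genes gave *YDR210C-C* among the rises, at 2.45 and 2.24. It is a retrotransposon gene with near-identical copies, whose signal cannot be assigned to 1 locus. *YDR210C-C* was also called higher in *pcf11-2*, *pcf11-ts2* and *ctk1*Δ (1.99, 0.91 and 0.78). Falls of named genes outside the strain markers and *MATALPHA1* were led by *YHB1*, a flavohemoglobin gene that removes nitric oxide, at −2.31 and −2.11. *RIB4*, of riboflavin synthesis, was at −1.91 and −1.87. Both were tight between arrays. *YHB1* and *RIB4* were also called lower in *ctk1*Δ (−2.82 and −1.25), and *YHB1* in *pcf11-ts2* (−0.88).

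Glucose transporter genes were less even, with *HXT1* at −2.18 and −1.57 and *HXT8* at −1.88 and −1.40, which belongs to a family of similar sequences. In *ctk1*Δ *HXT1* and *HXT8* were called lower as well (−1.52 and −1.07). *CHA1*, a serine and threonine deaminase gene, was at −2.21 and −1.0. *CHA1* was also called lower in *pcf11-2*, *pcf11-ts2* and *ctk1*Δ (−1.39, −1.04 and −1.58).

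The *pcf11* alleles carry the same strain markers as *sen1-1* and were measured by the same extraction, so the contrast with their mean was used as a comparison between mutants of like strain. In this contrast 219 features (3.44%) were higher and 115 (1.80%) lower in *sen1-1*. Of the 332 features above the reference, 151 (45.5%) were also above the *pcf11* alleles, which is 68.9% of the 219. Both comparisons use the same *sen1-1* arrays, so this overlap is not independent support. Of the a-specific, alpha-specific and auxotrophy genes, 0 were called by limma in this contrast, and their medians were 0.14, −0.07 and −0.07. Each *pcf11* allele has 1 array, so its spread was assumed to be like that of the other profiles.

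All 20 first genes that rose behind snoRNAs were also higher in *sen1-1* than in the *pcf11* alleles. The 20 were picked by the same *sen1-1* arrays that enter this contrast, so this count is not independent of the first. Of all 43 first genes, 21 were higher and 3 lower in the contrast, against 3.44% and 1.80% of all features. *USE1* differed by 4.65 ± 0.10 (SE), with pcf11-2 at 0.57 and pcf11-ts2 at 0.09. *TRS31* differed by 4.12, with −0.34 and −0.41 in the alleles, and *UBX6* by 3.84, with 0.25 in *pcf11-2* and a value near 0 in *pcf11-ts2*. *HEM4* (3.55), *YDR042C* (3.40), *SEN2* (2.99), *SMC5* (2.92), *REC104* (2.88), *FLX1* (2.56) and *POL4* (2.44) followed, so the 10 largest named differences were 9 first genes and 1 gene that comes after an unmeasured first gene. The smallest difference among the 20 was 0.88 for *PDX3*, which against *pcf11-2* alone was 0.75 and under the fold minimum.

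Of the 43 first genes, 2 were called higher than the reference in *pcf11-2* (5.54% of all features there) and 0 in *pcf11-ts2* (3.17%) by limma. *YDR042C* was called in *pcf11-2* at 0.97. Of the 12 NNS attenuated genes, 6 were higher than in the *pcf11* alleles (3.44% of all features), namely *URA8* (2.0), *HRP1* (1.99), *IMD2* (1.98), *NRD1* (1.7), *IMD3* (1.63) and *PCF11* (1.34), and *GSC2* was not (−0.32). *PCF11* is the gene mutated in the alleles compared, where it was at −1.04 and −1.19, and it was not called against the reference in *sen1-1*, so 5 of the 6 are also higher than the reference. *PAM16* (−1.90), *MMS2* (−1.22), *ADE16* (−1.11) and *GLO4* (−0.95) were lower than in the *pcf11* alleles, and *ODC2* was not called (−0.38), with −1.29 in *pcf11-2*.

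The 5 largest named differences in the other direction were at *PHO84*, *CIT2*, *PAM16* (above), *PTR2* and *CYC1*. *PHO84* differed by −3.52 ± 0.31 (SE), with 1.23 in *pcf11-2* and 2.74 in *pcf11-ts2*, and 6 of the 14 phosphate genes were lower in *sen1-1* than in the *pcf11* alleles, against 1.80% of all features. *CIT2*, a peroxisomal citrate synthase gene, differed by −2.02, with 1.5 in *pcf11-2* and 0.99 in *pcf11-ts2*. In *sen1-1* *CIT2* was at −0.63 and −0.91, and at −0.50 without array b. *PTR2*, a peptide transporter gene, differed by −1.86, with 1.71 and 2.44 in the alleles and 0.23 and 0.21 in *sen1-1*. *CYC1*, cytochrome c, was at −1.08 and −1.35 and differed by −1.79. Of the 38 stress genes 6 were lower than in the *pcf11* alleles, against the same 1.80%, and 0 higher.

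**Figure D5:**
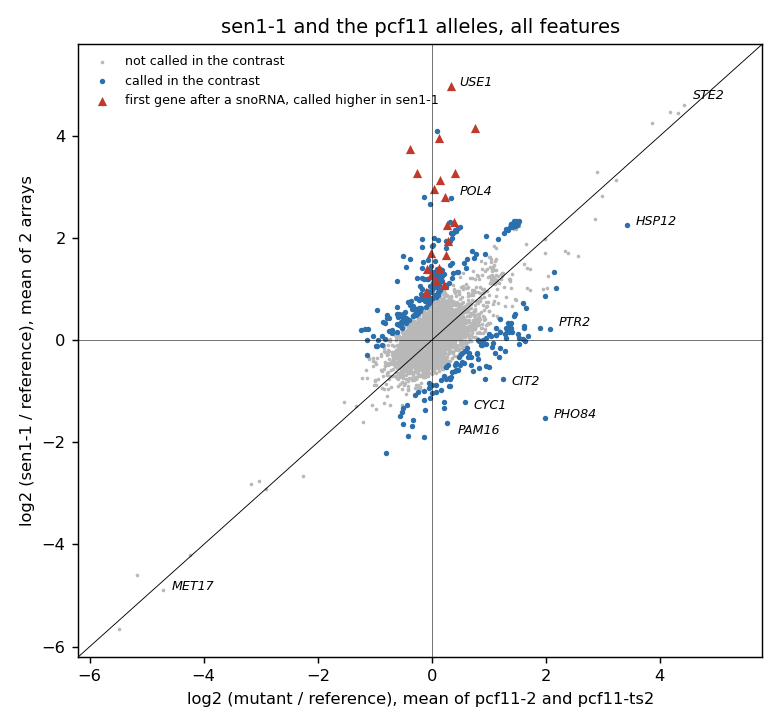
Each point is 1 feature, with the mean log2 ratio of pcf11-2 and pcf11-ts2 over reference on the x axis and the sen1-1 mean on the y axis, and the diagonal marks equal values. Red triangles are the 20 first genes behind snoRNAs that rose in sen1-1. They stand between −0.38 (*TRS31*) and 0.76 (*YDR042C*) on the x axis and reach up to 4.98 on the y axis. Blue points are other features called in the contrast, and mating type and auxotrophy genes such as *STE2* and *MET17* lie by the diagonal.

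*LYS2* was also high in *ctk1*Δ, at 3.31 and 2.94, although the strain list gives *ctk1*Δ in BY4742, while *STE2* (0.20) and *MET17* (0.35) were not called there. Against *ctk1*Δ, 225 features (3.53%) were higher and 247 (3.88%) lower in *sen1-1*, and these include the strain markers. Of the 43 first genes 11 were called higher than the reference in *ctk1*Δ (7.28% of all features there), and all 11 are among the 20 of *sen1-1*. The 2 profiles share the reference, so the direct contrast is given for each gene. Of the 43 first genes, 16 were higher in *sen1-1* than in *ctk1*Δ and 0 lower, against 3.53% and 3.88% of all features. Of the 20 genes, picked by the same *sen1-1* arrays, 15 were higher. *USE1* was at 1.78 in *ctk1*Δ and differed by 3.19 ± 0.10 (SE), and *UBX6* was at 1.05 and differed by 2.92.

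*YDR042C* was at 3.77 in *ctk1*Δ and differed by 0.39 ± 0.11 (SE), and *RGT1* was at 2.14 and differed by 0.17 ± 0.13 (SE), with an adjusted p of 0.298 from limma. *UBA1* (0.64), *PDX3* (0.42) and *RIM20* (0.69) differed by less than the fold minimum. *MAD1* (0.17), *STP22* (0.24), *BUD22* (0.07), *YTM1* (0.11), *NUP188* (0.07) and *GAL11* (0.09) lay close to the reference in *ctk1*Δ and were all called higher in *sen1-1* than in *ctk1*Δ. *DFR1* was low in both, at −1.64 in *ctk1*Δ. Of the genes facing a snoRNA, *PAM16* (−1.09), *MMS2* (−0.80) and *LIN1* (−0.84) were called lower than the reference in *ctk1*Δ. *ODC2* (−0.54), *GLO4* (−0.53) and *ADE16* (−0.40) were not called there. The median of the 28 nearest downstream genes on the opposite strand was −0.21 in *ctk1*Δ. Of these 28, 0 were called higher or lower in *sen1-1* than in *ctk1*Δ, against 3.53% and 3.88% of all features. For 28 genes, 0 calls are near those shares. The median difference was −0.14, and *MMS2* (−0.76) and *DAS1* (−0.75) were lower in *sen1-1* by just under the fold minimum.

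Attenuated genes split in this contrast. *HRP1* (1.54), *IMD2* (1.52), *IMD3* (1.27) and *URA8* (1.13) were higher in *sen1-1* than in *ctk1*Δ, while *NRD1* differed by 0.06, with 1.48 in *ctk1*Δ, and *GSC2* was lower (−1.28). Of the 38 stress genes, 23 were lower in *sen1-1* than in *ctk1*Δ, against 3.88% of all features, and 0 higher (median difference −1.04).

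In the exosome deletions few of these genes were called. Of the 43 first genes, 1 was called higher in *rrp6*Δ (1.63% of all features there) and 1 in *lrp1*Δ (0.973%), in both cases *YDR042C*, at 1.04 and 1.19. *USE1* was at 0.42 in *rrp6*Δ and 0.25 in *lrp1*Δ, and *FLX1* at 0.59 and 0.45. RNA of these deletions was isolated by a different protocol than that of *sen1-1*, and its part in the difference was not tested.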

How the data were processed

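The authors deposited scanner intensity values per spot (mean foreground and local background, not normalized), and a table of log2 ratios normalized and dye-corrected by the authors, for which the labels name limma (2.12.0 where a version is given). In 6 of these 22 columns the mutant is in the denominator, which was found from the scanner values, and they were turned round. Column medians lay between −0.0080 and 0.019, and whether wild type profiles were subtracted from them is unknown. The methods compare mutants with wild type cultures, for *sen1-1* and the *pcf11* alleles of the matching mating type, which are not analysed here.

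Intensity values were background corrected (normexp, offset 50), normalized by loess within arrays over gene spots and turned to log2 of mutant over reference. The spots of 6388 probes were averaged into 6373 features, of which 5311 are named genes (58 symbols updated through assembly R64). Of 15 genes with several probes the mean was used. On the *sen1-1* arrays, log2 ratios of external control spots lay 0.37 and 0.46 above those of gene spots, a difference that ran from −0.62 to 1.33 over all arrays, and ratios are relative to other genes, not to total mRNA. The number of arrays limits the precision.

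limma 3.58.1 in R 4.3.3 fitted 12 profile coefficients and a dye term over all 22 arrays (9 residual and 3.7 prior degrees of freedom), tested on simulated data, with two-sided p-values adjusted by Benjamini-Hochberg over 6373 features. The reference counts as 1 control sample, so its own spread is left out, and p-values measure the spread between arrays. Background was exceeded at 2.6 SD, and spots from 65000 were saturated. Array letter and dye orientation coincide.

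Members, lists and rules were chosen with earlier results of these data known. Named genes were the 15 largest rises and 10 largest falls in *sen1-1*, strain markers aside, the 10 largest positive and 5 largest negative differences from the *pcf11* alleles, called first genes behind snoRNAs, *SEN1*, called members of lists of up to 25 genes and the 3 largest calls of longer lists. *HMRA1* and *MATALPHA1* were not left out and hold a place among these rises and falls. Coordinates are not given, since the files name no genome build, and positions rest on R64 alone.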

Additional observations from a re-analysis of the deposited data

How the results depend on the processing

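The 20 first genes behind snoRNAs stayed called under all settings tried on the comparison with the reference, the lowest of them at 0.84 after each feature was centred on its median over the 12 profiles. That centring left 194 features higher, 53 lower and 18 list members higher than the reference, and turned *PHO84* to 0.35 (adjusted p = 0.241 from limma). With no fold minimum, 1815 features were higher and 1498 lower than the reference, 1156 and 970 than the *pcf11* alleles, and 1367 and 1297 than *ctk1*Δ, with 9 first genes lower and 102 list members higher and 46 lower. Median centring in place of loess gave 2 first genes lower and 8 list members lower, in place of 1 and 4. Without the replicate block, which is the dye term, 332 features were higher and 82 lower, as with it. Leaving out array a or b gave 293 to 407 features higher and 81 to 99 lower than the reference, and 20 first genes higher each time. Over 171 called values of named genes and 1778 refits of them, 51 lost the call and 1 turned sign. The intron setting and the one without strain markers were added after the data were seen. Among list members the centring ended calls of *GSC2*, *REF2*, *RNA14*, *HSP12*, *MSC1* and *HSP26*, among others, and median centring those of *RNA14*, *ERO1* and *FPR2*. The cause was not tested. A batch term was not run, since the files used give no slide or scan date. Each *pcf11* allele rests on 1 array.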
